A study of Mus musculus with 6 samples.

Results

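The antioxidant and glutathione genes are 43 named genes of the NRF2 pathway, glutathione metabolism, the thioredoxin and peroxiredoxin systems and ferritin, taken from the expression table of mDCT15 cells by gene symbol. A row was found for 39 of the 43, among 20624 rows in all, and Gpx3, Gpx7, Gstm4 and Gstt1 were not analysed here. mDCT15 is a mouse cell line derived from the distal convoluted tubule of the kidney, and RNA was sequenced from 3 samples of Pkd1-/- cells, edited with CRISPR-Cas9, and 3 samples of wild type cells, to ask how loss of polycystin-1 acts on the release of extracellular vesicles. The sample labels give the genotype of the edited cells as a knockdown while the sample titles and the study's methods give a knockout, and how many edited clones were used is not given in the sources used here. Both genotypes were grown in the same medium with serum. Every level below is the authors' mean over all 6 samples of gene counts divided by the size factor of each sample, termed the mean normalized count. It pools both genotypes, so no genotype was compared and no spread between replicates or depth of a sample can be given.

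Cells keep hydrogen peroxide, lipid peroxides and superoxide low with enzymes that draw reducing power from NADPH through glutathione or thioredoxin. The transcription factor NRF2, encoded by Nfe2l2, is held down by its adaptor KEAP1 and, once freed, raises transcription of many of these enzymes by binding antioxidant response elements together with small MAF proteins. Kidney tubules spend much oxygen on ion transport and so depend on these systems.

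The core of the antioxidant response element was searched for in the promoters, since it is the sequence through which NRF2 acts. The RefSeq promoter table (GRCm38.p6) held 46 promoters of 37 of the 43 listed genes, each from 250 bases before to 50 bases after a gene start. The core TGACNNNGC, on either strand, was found in 9 of them (19.6%), which belong to 9 genes, and in 12.4% of all 32851 promoters of the table. The matches are shown with 10 bases on each side, 5′ to 3′ on the strand that carries the core, which is in capitals, and with GRCm39 positions from an exact match of the promoter to that genome.
Gsta3 (chr1:21310678-21310706, plus strand): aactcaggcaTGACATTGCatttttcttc
Nfe2l2 (chr2:75535229-75535257, minus strand): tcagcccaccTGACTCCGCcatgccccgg
Srxn1 (chr2:151947462-151947490, minus strand): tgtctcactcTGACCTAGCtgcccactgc
Gstm5 (chr3:107803118-107803146, plus strand): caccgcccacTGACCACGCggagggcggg
Gclm (chr3:122039062-122039090, minus strand): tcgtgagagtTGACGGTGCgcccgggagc
Prdx1 (chr4:116542653-116542681, minus strand): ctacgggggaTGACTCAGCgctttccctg
Mgst1 (chr6:138117459-138117487, minus strand): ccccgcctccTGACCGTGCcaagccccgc
Txnrd1 (chr10:82694938-82694966, minus strand): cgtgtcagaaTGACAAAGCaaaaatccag
Sod1 (chr16:90017584-90017612, minus strand): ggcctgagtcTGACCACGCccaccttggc
The centre of the core lay between 38 bases (Gstm5) and 236 bases (Nfe2l2) before the RefSeq start of the promoter, other than in Srxn1, where it lay after it. The GENCODE start of a gene can differ from these starts: by the GENCODE positions given below, the cores of Prdx1, Mgst1, Txnrd1 and Sod1 lie inside the gene, as does that of Srxn1. In Prdx1 the core is also a match to TGANTCA, the motif of the AP-1 factors, and without such overlaps the core was in 8 member promoters (17.4%, against 12.0% of all). TGANTCA itself was in 5 member promoters (10.9%, against 7.81% of all). A match is a description of letters and no binding was measured. The levels of genes with and without a core overlapped: the 9 genes with a core had mean normalized counts from 1.28 in Mgst1 to 7364 in Prdx1, and the 24 without it, among members with a row and a promoter, from 2.35 in Nqo1 to 5827 in Fth1.

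A further sequence feature is the codon TGA read as selenocysteine. Among members with a row it is annotated in 4, in which this residue belongs to the catalytic site. It is shown in capitals with 15 bases before and 6 after it, from the GRCm39 coding exons.
Gpx1 (chr9:108216635-108216658, plus strand): aatgtcgcgtctctcTGAggcacc
Gpx4 (chr10:79890556-79890579, plus strand): aacgtggcctcgcaaTGAggcaaa
Txnrd1 (chr10:82731856-82731879, plus strand): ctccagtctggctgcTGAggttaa
Txnrd2 (chr16:18296507-18296530, plus strand): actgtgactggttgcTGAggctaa
In both thioredoxin reductases the codon stands just before the last codon and the stop, and in both glutathione peroxidases it stands far from the end of the coding sequence. Levels of these genes ranged from 60.5 (Txnrd2) to 668 (Gpx4) mean normalized counts per exon kilobase, with 407 for Gpx1 and 638 for Txnrd1.

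Most members were well represented. At a minimum mean normalized count of 10, 34 of the 39 members (87.2%) were above the limit, against 66.5% of all rows of the table and 85.3% of the 13862 protein-coding rows. A mean of 1000 or more was reached by 17 members (43.6%), against 20.9% of all rows and 31.0% of protein-coding rows. The median member had a mean of 916, and the median over all rows was 105, or 474 over protein-coding rows. The members were chosen by function and hold many housekeeping enzymes, so these shares describe the list and no more. Long genes collect more reads than short ones, so genes are compared below per kilobase of all annotated exon bases (exon kilobase). On that scale the median member was at 283, the median row at 28.6 and the median protein-coding row at 72.7. Together the members made up 0.379% of the summed mean normalized counts.

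**Figure D1:**
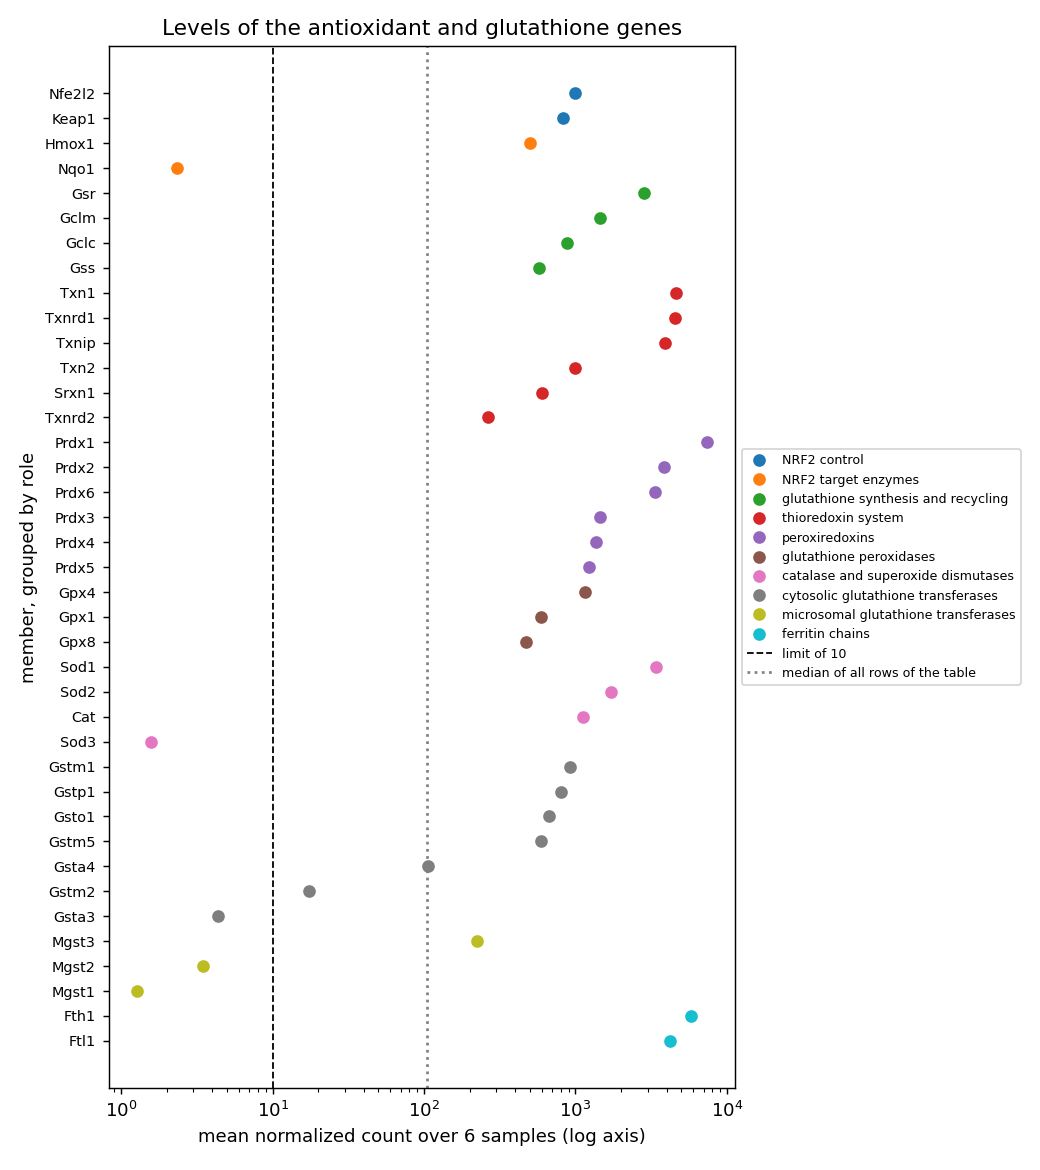
Mean normalized count over 6 samples (log axis) of each of the 39 members, as points coloured and grouped by role; the dashed line marks 10 and the dotted line the median of all rows, 105. The points run from 1.28 (Mgst1) to 7364 (Prdx1), and Nqo1, Sod3, Gsta3, Mgst1 and Mgst2 lie left of the dashed line.

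The control genes of the pathway were above the median row; positions here and below are those of GENCODE on GRCm39. Nfe2l2, the gene of NRF2 (ENSMUSG00000015839, chr2:75504739-75534985, minus strand), had a mean normalized count of 995, or 182 per exon kilobase, above 81.5% of the 20122 rows with an annotated length. Keap1, which delivers NRF2 to a ubiquitin ligase (ENSMUSG00000003308, chr9:21141026-21150679, minus strand), had a mean of 822, or 144 per exon kilobase. Per exon kilobase the factor and its inhibitor were thus of similar level.

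The textbook NRF2 target enzymes differed widely. Hmox1, heme oxygenase 1, which breaks down heme and frees iron (ENSMUSG00000005413, chr8:75820241-75827217, plus strand), was at 283 mean normalized counts per exon kilobase, with a mean of 498. Nqo1, a quinone reductase (ENSMUSG00000003849, chr8:108113835-108129934, minus strand), was at 0.855 per exon kilobase, with a mean of 2.35, and ranked 17121 of 20624 rows. Since no count can be below 0, a mean of 2.35 over 6 samples bounds the mean of the 3 samples of either genotype at 4.70, so Nqo1 was below the limit of 10 in both genotypes. In bulk RNA, transcripts in few cells and few transcripts in all cells cannot be told apart.

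All 4 genes of glutathione synthesis and recycling were above the limit. The highest per exon kilobase was Gsr, glutathione reductase, which restores reduced glutathione with NADPH (ENSMUSG00000031584, chr8:34142551-34188192, plus strand), at 410 with a mean normalized count of 2844. Gclm and Gclc, the modifier and catalytic subunits of glutamate-cysteine ligase, were at 184 and 141 per exon kilobase (means of 1461 and 886). The ratio of the subunits depends on the length used: per coding kilobase Gclm was at 1778 and Gclc at 436. Gsr was at 1775 on that scale, so its lead over Gclm was lost there. Per kilobase of the longest transcript Gsr (570) stayed above Gclm (230). Gss, glutathione synthetase, which adds glycine in the last step (ENSMUSG00000027610, chr2:155405096-155455505, minus strand), was the lowest per exon kilobase, at 83.6 with a mean of 578. Exons of Acss2 on the opposite strand, with a mean of 622, cover 21.9% of the exon bases of Gss.

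The thioredoxin system was among the stronger groups, with a median of 427 mean normalized counts per exon kilobase over 6 genes. Txn1, cytosolic thioredoxin, a small protein that reduces disulfides (ENSMUSG00000028367, chr4:57934208-57956424, minus strand), was at 2088 per exon kilobase, above 99.3% of rows, with a mean of 4594. Txnip, which binds and inhibits thioredoxin (ENSMUSG00000038393, chr3:96465267-96469201, plus strand), was at 1239, with a mean of 3924. Txnrd1, the cytosolic reductase of thioredoxin (ENSMUSG00000020250, chr10:82669785-82733546, plus strand), was at 638, with a mean of 4518. The mitochondrial pair was lower than the cytosolic pair: Txn2 was at 216 and its reductase Txnrd2 (ENSMUSG00000075704, chr16:18245134-18297823, plus strand) at 60.5 per exon kilobase, with means of 989 and 266. The same order, Txn1 above Txn2 and Txnrd1 above Txnrd2, was seen per coding kilobase, with 10635 and 1985 for the thioredoxins and 2457 and 168 for the reductases. Srxn1, sulfiredoxin, which repairs overoxidized peroxiredoxins, was at 64.3 per exon kilobase with a mean of 604, and at 1157 per coding kilobase. The lncRNA Gm15441 lies on the opposite strand across 29.3% of the exon bases of Txnip and had a mean normalized count of 10.8.

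Peroxiredoxins, which remove peroxides with electrons mostly from thioredoxin, were the only enzyme group of more than 3 genes with every member at a mean of 1000 or more (6 of 6). Prdx1, a cytosolic form (ENSMUSG00000028691, chr4:116532123-116558398, plus strand), had the highest mean normalized count of all members, 7364 (rank 219 of 20624), and 1770 per exon kilobase, which is 37.6% of the summed level of the 6 peroxiredoxins on that scale. Prdx3, the mitochondrial form (ENSMUSG00000024997, chr19:60852489-60863017, minus strand), was at 889 and Prdx2, a second cytosolic form (ENSMUSG00000005161, chr8:85693354-85702350, plus strand), at 848 per exon kilobase, with means of 1456 and 3855. Prdx5 (ENSMUSG00000024953, chr19:6884065-6887792, minus strand) was at 491 and Prdx6, which can draw on glutathione, at 362 per exon kilobase, with means of 1233 and 3364. Prdx4, the form of the endoplasmic reticulum (ENSMUSG00000025289, chrX:154106813-154123750, minus strand), was the lowest, at 351 with a mean of 1374. Exons of Trmt112 on the opposite strand, with a mean of 309, cover 29.2% of the exon bases of Prdx5. Below Prdx1 the order hung on the length: per coding kilobase Prdx2 (6489) and Prdx6 (4834) stood above Prdx5 (1930), Prdx3 (1888) and Prdx4 (1672).

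Of the glutathione peroxidases, 3 of 5 had a row, each above the limit. Gpx4, which reduces lipid peroxides in membranes and so guards against ferroptosis (ENSMUSG00000075706, chr10:79883000-79892273, plus strand), was the highest, at 668 mean normalized counts per exon kilobase with a mean of 1151. Gpx1, the main cytosolic form (ENSMUSG00000063856, chr9:108216102-108217546, plus strand), was at 407 with a mean of 589. Gpx8, a form of the endoplasmic reticulum (ENSMUSG00000021760, chr13:113178829-113183292, minus strand), was at 254 with a mean of 471. Exons of the lncRNA Gm57050 on the opposite strand cover 85.3% of the exon bases of Gpx1, the largest such share of all members. Gpx3, the secreted form known for its synthesis in kidney tubules, and Gpx7 were not analysed here.

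Among catalase and the superoxide dismutases the intracellular enzymes were high and the secreted enzyme was low. Sod1, the cytosolic copper and zinc enzyme (ENSMUSG00000022982, chr16:90017408-90027657, plus strand), was at 392 mean normalized counts per exon kilobase with a mean of 3391. Cat, the peroxisomal catalase, was at 308 with a mean of 1129, and Sod2, the mitochondrial manganese enzyme, at 133 with a mean of 1728. Per coding kilobase Sod2 (2595) stood above Cat (711), the reverse of the order per exon kilobase. Sod3, the extracellular enzyme (ENSMUSG00000072941, chr5:52521070-52528883, plus strand), had a mean of 1.59 and the lowest level of all members per exon kilobase, 0.382, and its mean in either genotype could be at most 3.18. Exons of Scaf4 on the opposite strand, with a mean of 1317, cover 48.8% of the exon bases of Sod1.

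**Figure D2:**
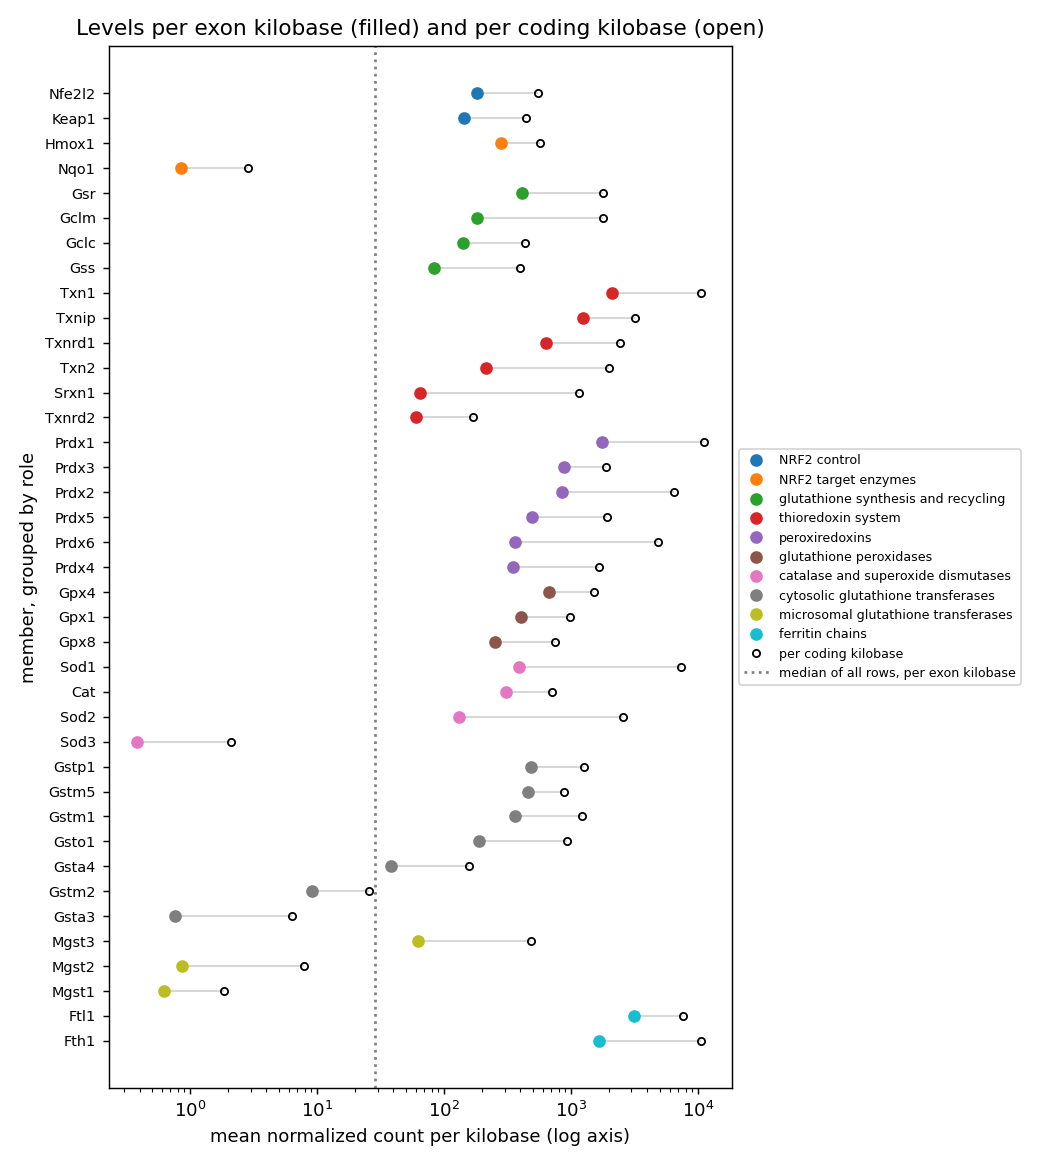
Mean normalized count per exon kilobase (filled points, coloured and grouped by role) and per coding kilobase (open points) of the 39 members on a log axis; the dotted line is the median of all rows per exon kilobase, 28.6, and protein-coding rows alone had a median of 72.7. Ftl1 (3136) and Txn1 (2088) lead per exon kilobase, Prdx1 (11158) per coding kilobase, and every open point lies right of its filled point.

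Cytosolic glutathione transferases, which join glutathione to electrophiles, were represented by 7 of 9 listed genes, of which 6 were above the limit and none reached a mean of 1000. Gstp1, of the pi class (ENSMUSG00000060803, chr19:4085405-4088068, minus strand), was the highest, at 489 mean normalized counts per exon kilobase with a mean of 799. Gstm5 and Gstm1, of the mu class, followed at 461 and 364 (means of 591 and 916), and Gsto1, of the omega class, was at 189 with a mean of 670. Per coding kilobase the order was Gstp1 (1268), Gstm1 (1221), Gsto1 (931) and Gstm5 (880). Of the alpha class, Gsta4, which acts on lipid aldehydes, was at 38.5 with a mean of 106, and Gsta3 (ENSMUSG00000025934, chr1:21310806-21335885, plus strand) was the lowest, at 0.762 with a mean of 4.37 and at most 8.73 in either genotype. Gstm2 stood between them, at 9.17 with a mean of 17.5.

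The mu class genes lie side by side on chromosome 3 within 145 kb between the lower ends of Gstm5 (chr3:107803137-107806005, plus strand) and Gstm4 (chr3:107947721-107952210, minus strand), and their levels were uneven along the cluster. Gstm5, on the plus strand at an end of the cluster, was at 461 mean normalized counts per exon kilobase, while its neighbours Gstm7 and Gstm6, on the minus strand like the rest, were at 4.59 and 0.257. Gstm2 was at 9.17 and Gstm1, 116 kb from the lower end of Gstm5, at 364. Among the genes of the cluster analysed here, those of high level thus lie on either side of those of low level. Gstm3 and Gstm4 were not analysed here. Exons of the lncRNA 4933431E20Rik on the opposite strand, with a mean of 386, cover 14.6% of the exon bases of Gstm5.

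**Figure D3:**
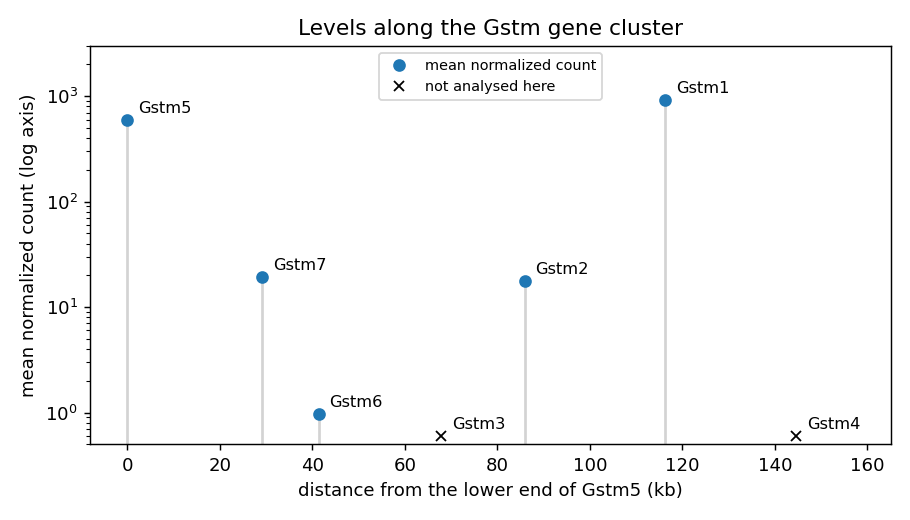
Mean normalized count (log axis) of the Gstm genes against the distance of their lower end from that of Gstm5 in kb; crosses at the base mark genes not analysed here. Gstm5 (591) and Gstm1 (916) stand above Gstm7 (19.2), Gstm2 (17.5) and Gstm6 (0.960), which lie between them.

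The microsomal glutathione transferases, membrane enzymes of a separate family, were the lowest group, with a median of 0.867 mean normalized counts per exon kilobase. Mgst3 (ENSMUSG00000026688, chr1:167196550-167221687, minus strand) was above the limit, at 62.2 with a mean of 223. Mgst2 (ENSMUSG00000074604, chr3:51567781-51590098, plus strand) was at 0.867 with a mean of 3.48, and Mgst1 (ENSMUSG00000008540, chr6:138117314-138133774, plus strand) at 0.627 with a mean of 1.28. The means of the latter genes in either genotype could be at most 6.96 and 2.55, so both were below the limit of 10 in Pkd1-/- and in wild type samples.

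Ferritin stores iron in a shell of heavy and light chains and so keeps it from reacting with peroxide. Ftl1, the light chain (ENSMUSG00000050708, chr7:45107367-45109308, minus strand), had the highest level of all members per exon kilobase, 3136, above 99.6% of rows, with a mean of 4205. Fth1, the heavy chain with the ferroxidase site (ENSMUSG00000024661, chr19:9957911-9962462, plus strand), was at 1655 with a mean of 5827. Which chain was higher depended on the length: per coding kilobase Fth1 was at 10672 and Ftl1 at 7659, while per kilobase of exon windows found once in the genome, a scale chosen after seeing the data, Ftl1 was at 7351 and Fth1 at 1742. On the opposite strand, exons of the lncRNA Gm36913 cover 41.5% of the exon bases of Fth1, and those of Gm10252 (mean 3.45) 26.5% of those of Ftl1.

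How far the levels can be assigned to a gene depends on copies of its sequence, because a read that fits several places in the genome is not assigned by the counting used. The coding part of each exon was therefore cut into windows of 42 bases, the read length, so that no window spans a splice junction. Each window was searched for in the whole genome on both strands. In 9 of the 39 members more than 10% of coding windows had an exact copy elsewhere, and 25 had none, while 12.2% of 13865 genes of the table were past 10%. For the 5 members with the largest shares a window with the most copies is shown, 5′ to 3′ on the coding strand and wholly in coding exons (GRCm39).
Gstp1 (chr19:4087325-4087366, minus strand): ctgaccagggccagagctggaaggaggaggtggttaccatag
Ftl1 (chr7:45108034-45108075, minus strand): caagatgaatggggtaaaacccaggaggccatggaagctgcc
Gpx4 (chr10:79890802-79890843, plus strand): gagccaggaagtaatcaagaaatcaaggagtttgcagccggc
Gstm2 (chr3:107892957-107892998, minus strand): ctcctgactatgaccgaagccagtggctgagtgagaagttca
Prdx1 (chr4:116544615-116544656, plus strand): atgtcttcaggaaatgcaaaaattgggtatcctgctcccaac
The window of Ftl1 occurs at 7 places in the genome, those of Gstp1, Gpx4 and Prdx1 at 3 each and that of Gstm2 at 2, the member's own place included.

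Gstp1 shared the most, with 80.4% of its coding windows. All of these recur in Gstp2, its neighbour on the same chromosome, which had a mean normalized count of 4.43, and 70.8% of all coding windows of Gstp1 recur in the pseudogene Gstp-ps, with a mean of 34.6. Ftl1 shared 79.7% over 11 places, led by Ftl1-ps1 with a mean of 6.83. For Gpx4 the share was 46.1%, and its copy Gpx4-ps2 had a mean of 104. For Prdx1 it was 40.8%, with 33.3% of its coding windows in Gm7204 (mean 3.75) and 23.0% in Gm21399 (mean 65.4). Prdx2 shared 25.4%, with Prdx2-ps1 (mean 119) as the main copy, and Sod1 39.8%, with the processed pseudogene Gm8566 (mean 5.59). Gstm2 and Gstm1 shared 44.8% and 33.4% of their coding windows. For Gstm2 the main copy was the processed pseudogene Gm6665, with 44.3%, and for Gstm1 it was Gstm2-ps1 (mean 3.19), with 21.0%. With each other they shared 4.43% of the windows of Gstm2 and 2.91% of those of Gstm1. Fth1 shared 14.3%, and Gclm, Sod2, Txn1, Prdx6 and Gclc between 0.533% (Gclc) and 9.63% (Gclm). Over all exon bases, the length behind the levels per exon kilobase, the shares were others: 51.4% of windows were repeated in Ftl1, 49.2% in Sod2, 44.5% in Gstp1 and 34.6% in Gpx4, but 1.42% in Sod1 and 2.73% in Fth1. Reads were sequenced in pairs, and a mate in unique sequence can place a read that is not unique itself, so these shares are not shares of reads lost. Copies are named by their GENCODE symbols.

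**Figure D4:**
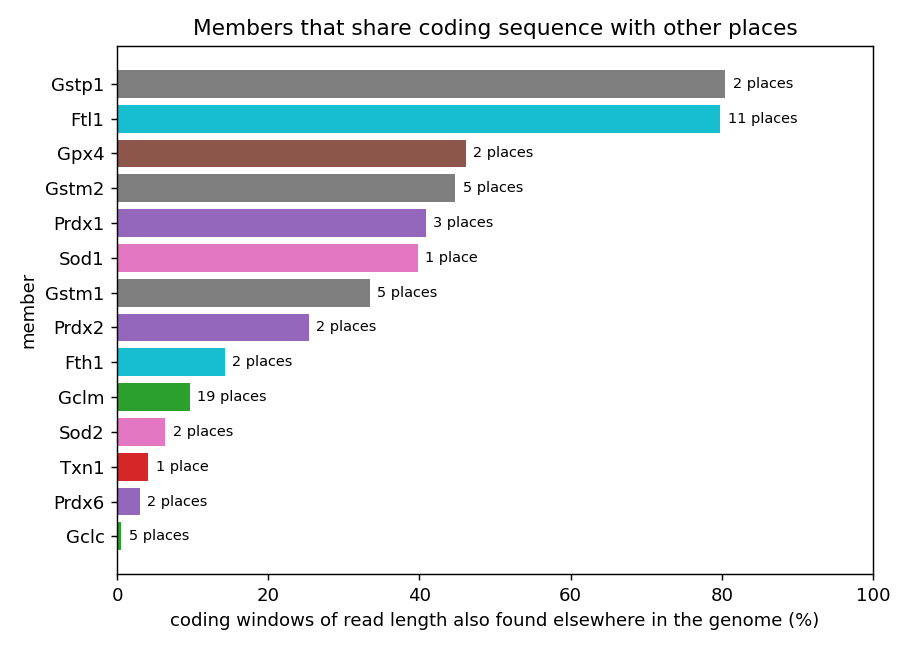
Share of coding windows of 42 bases with an exact copy elsewhere in the genome, in percent, for the members with any; bars are coloured by role, and the number beside each bar counts the places with a copy. Gstp1 (80.4%) and Ftl1 (79.7%) stand apart from Gpx4 (46.1%) and the rest.

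Further genes of the same pathways were taken from 6 lists, beside which the 85.3% of protein-coding rows above the limit can be set. All 12 further genes of NRF2 control were above the limit of 10, with a median mean normalized count of 1952. The highest per exon kilobase were Nfe2l1, a factor related to NRF2 (937), Sqstm1, the autophagy receptor p62, which binds KEAP1 (692), and Cul3, the scaffold of the KEAP1 ubiquitin ligase (620), with means of 7408, 5673 and 3453. Nfe2l1 was thus above Nfe2l2 (182) on that scale. Of the NRF2 target enzymes 20 of 21 were above the limit, led by the pentose phosphate enzymes Taldo1 (767 per exon kilobase) and Tkt (617) and by Idh1 (419), which makes NADPH, with means of 1871, 6456 and 2790. The exception was Aldh3a1, an aldehyde dehydrogenase, with a mean of 0.717, so that Nqo1 and Aldh3a1 were the members of both NRF2 target lists below the limit. Slc7a11, the cystine importer that feeds glutathione synthesis, had a mean of 515 and was chosen after its value was seen.

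Of 30 further genes of glutathione metabolism 21 had a row and 16 were above the limit (76.2%), with a median mean of 117, near the 105 of all rows and below the 474 of protein-coding rows. Slc25a39, the mitochondrial glutathione carrier, led with 535 per exon kilobase, followed by Chac1, which degrades glutathione (269), and Hagh, a glyoxalase (148), with means of 2516, 698 and 696. The 5 genes below the limit, Gstk1, Gsto2, Gstm6, Gstt2 and Gstp2, are among the 7 glutathione transferases of the list with a row, and the others, Gstz1 and Gstm7, had means of 437 and 19.2. Gstp2 shares coding windows with Gstp1, as given above, and in Gstm6 24.4% of coding windows have a copy elsewhere. In the thioredoxin and selenoprotein machinery 17 of 18 were above the limit, and the highest per exon kilobase were Selenof (481), a selenoprotein of the endoplasmic reticulum, the methionine sulfoxide reductase Msrb1 (436) and Sephs2 (419), which makes the selenium donor, with means of 2799, 549 and 912. Selenop, the secreted selenium carrier, was below it with a mean of 6.23.

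In iron handling all 9 genes with a row, of 11 listed, were above the limit, and the transferrin receptor Tfrc was the highest at 666 per exon kilobase, followed by the iron regulatory proteins Ireb2 (261) and Aco1 (252), with means of 4706, 2943 and 1988. Oxidant sources were the lowest of the 6 lists, with 7 of 12 having a row and 4 above the limit. The NADPH oxidase subunit Cyba led with 595 per exon kilobase, followed by the monoamine oxidase Maoa (171) and by Nox4, the oxidase known from kidney tubules (12.9), with means of 1371, 744 and 109. The partner subunit of Nox4 was thus far above Nox4 itself per exon kilobase.

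**Figure D5:**
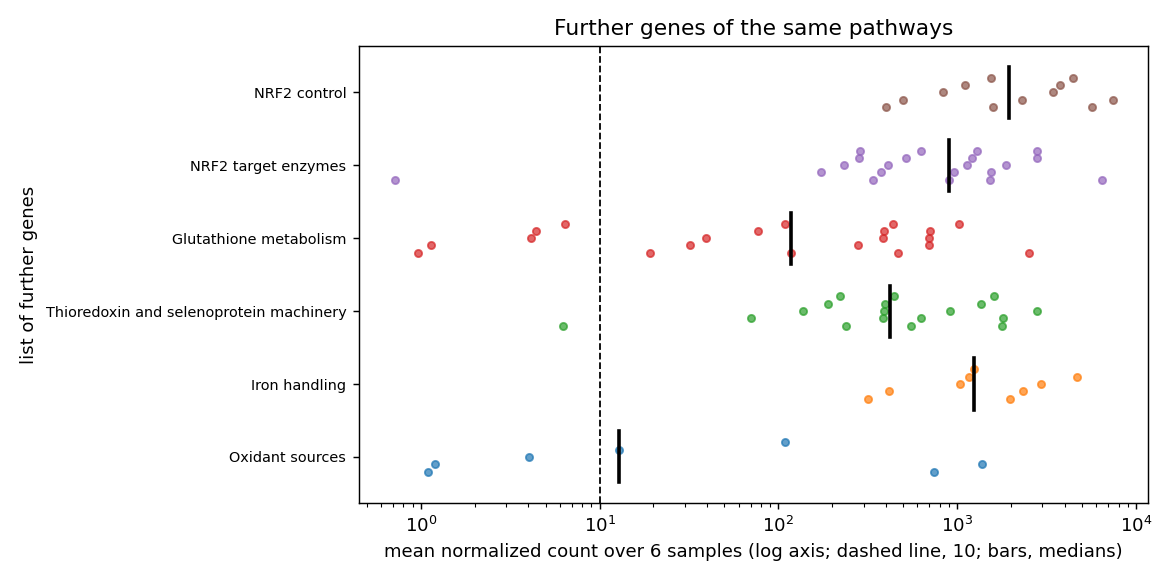
Mean normalized count over 6 samples (log axis) of the genes of 6 further lists, as points by list; black bars are medians and the dashed line marks 10. The medians run from 12.8 (oxidant sources) to 1952 (NRF2 control).

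The labelled cell type was set against marker genes. Of 18 markers of the distal convoluted tubule 11 had a row and 9 were above the limit of 10, with a summed mean normalized count of 12722, most of it from the kinase gene Wnk1 (8468). Its defining markers Slc12a3, the thiazide-sensitive cotransporter, and Pvalb were not analysed here, and Trpm6, the magnesium channel, had a mean of 29.6. Markers above the limit, of all those listed, were 1 of 6 for the thick ascending limb, 1 of 10 for the collecting duct, 3 of 8 for the proximal tubule and 5 of 8 for kidney epithelium, with summed means of 290, 56.7, 20361 and 14834. In the proximal tubule list Aqp1 (11355) and Lrp2 (8826) gave nearly the whole sum, while its transporters Slc34a1 and Slc5a2 were at 2.04 and 2.77. The kidney factor Pax8 had a mean of 4905, and the keratin gene Krt8 one of 0.980. Cdh1 and Krt18, also of the kidney epithelium list, were not analysed here. For fibroblasts, endothelium and leukocytes the counts were 2 of 8, 0 of 5 and 2 of 6, with summed means of 17670, 5.72 and 900, led by Vim (17450), Pecam1 (4.68) and Csf1r (850). Pkd1 itself had a mean of 3175 over both genotypes, which cannot check the labels.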

How the data were processed

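RNA of 3 Pkd1-/- and 3 wild type samples of mDCT15 cells was depleted of ribosomal RNA and sequenced in paired reads of 42 bases. The authors trimmed reads with Trim Galore 0.4.5, mapped them with STAR 2.7.5a to GRCm39, counted them per gene with HTSeq 0.11.0 at default parameters, and normalized with DESeq2 1.22.0 in R 3.5.3, per the submitters' processing notes and the study's methods. The deposited value used is a signal, the authors' mean over all 6 samples of counts divided by size factors, not divided by gene length. The other columns hold the authors' own comparison of the genotypes (a log2 fold change, its standard error, a test statistic and p-values) and were not used. The depth of each sample is unknown, so no interval is given, and how strand was handled is not given in the sources used here beyond the default.

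Gene IDs were matched to GENCODE vM39 on GRCm39 (20122 of 20624 rows), a later release than the authors used. Levels were divided by the union of exon bases; the longest transcript, the longest coding sequence and exon windows found once in the genome were alternatives. A limit of 10 was set, with 1, 5 and 100 as alternatives. Window and motif searches were exact, in Python 3.11.15 with numpy 2.4.6, pandas 2.3.3 and numba 0.67.0, and were tested on simulated data. Figures used matplotlib 3.10.9. Every member is accounted for by role; given in full are the highest and lowest of each role group per exon kilobase, the 10 highest members, all below 10, and the 3 highest genes of each further list. A planned test between genotypes needed counts of single samples and was not run. The members and lists were chosen with earlier results of these data known.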

Additional observations from a re-analysis of the deposited data

How the results depend on the processing

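The length behind a level moved it most. The median member was at 283 mean normalized counts per exon kilobase, at 431 per kilobase of the longest transcript and at 1157 per coding kilobase, since these lengths are shorter. With exon windows found once in the genome, chosen after seeing the data, it was 320. Single members rose by over 1.5 times in 39, 18 and 5 of 39 cases with coding length, longest transcript and windows found once; the last are Ftl1, Gstp1, Gpx4, Sod2 and Gstm2. Of the 10 highest members per exon kilobase 7 were also among the 10 highest per coding kilobase. The median member stood at percentile 77.6 of the mean among all rows and at 66.8 among protein-coding rows. Adding rows whose symbol in the table names a pseudogene of the member changed the means of 3 members, Gpx4 to 1255, Gstm2 to 20.7 and Ftl1 to 4213, which leaves the median in place; copies with other symbols were not added.

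Members above the limit numbered 39, 34 and 33 at limits of 1, 5 and 100, and 34 at 10, also with summed rows of a symbol or GENCODE symbols, the latter chosen after seeing the data. At a limit of 1 the counts were 7 for oxidant sources, 2 for the thick ascending limb (also 2 at 5), 2 for the collecting duct, 6 for the proximal tubule, 7 for fibroblasts, 2 for endothelium and 4 for leukocytes. At 100 they were 0 for the collecting duct and 1 for leukocytes. The promoter share was 19.6% for the core, 17.4% without AP-1 matches and 10.9% for the AP-1 motif.

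No paired analysis was possible because the value used is a mean over all samples. For the same reason the genotype comparison and its alternatives (size factors, no filter, the replicate block and each sample left out) were not run. Opposite-strand exons of other genes overlap 24 of 39 members, and same-strand exons 3 (Gclm, Gsr and Ftl1). The share over all rows was not counted, and whether an overlap alters a level was not tested.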

Other observations

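The table reaches lower than the minimum that the study's methods give for a gene in each sample. Of 20624 rows 5385 had a mean normalized count under 5, down to 0.618. The highest rows were Gm26917 with a mean of 1052814, Gm42418 with 300267 and Rn7sk with 151743, which together made up 8.99% of the summed means. Actb had a mean of 107295, and the sum of all 39 antioxidant and glutathione genes was 63450.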
